A study of Arabidopsis thaliana with 8 samples.

Results

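The PYR and PYL proteins are the soluble receptors of abscisic acid, the plant hormone of drought response, stomatal closure and seed dormancy. The genes described here are PYR1 and PYL1 to PYL9, 10 of the 33199 genes in the deposited table, taken by their gene identifiers. RNA was sequenced from 4 shoot samples and 4 root samples of Arabidopsis thaliana Col-0, and no treatment, mutant or transgene sets the groups apart. The growth text given with the samples is about a different plant, so plant age, growth medium and harvest are not known here, nor whether each sample was grown separately. P-values therefore cover only the spread among these samples, and that spread may be technical.

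Without the hormone, clade A protein phosphatases of type 2C (PP2C) hold SnRK2 kinases inactive. When abscisic acid enters its pocket, a receptor closes a gate loop over it and docks onto the phosphatase. The freed kinases then phosphorylate bZIP transcription factors and, in guard cells, ion channels. The receptors fall into 3 subfamilies by sequence. PYR1, PYL1, PYL2 and PYL3 form subfamily III and pair up as dimers when no hormone is bound. PYL4, PYL5 and PYL6 belong to subfamily II, and PYL7, PYL8 and PYL9 to subfamily I, whose members are described as monomers that respond to lower hormone levels. PYL8 is known for its part in lateral root growth.

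The sequences follow that split in part: exon number sets only subfamily I apart, and identity within subfamily III overlaps that between subfamilies. In the TAIR10.1 annotation the coding parts of PYR1 and of PYL1 to PYL6 lie in transcripts of 1 exon, and PYL7, PYL8 and PYL9 have 3 exons. Coding sequences were 62.6% to 72.2% identical within subfamily I, 61.0% to 62.7% within subfamily II and 52.1% to 65.0% within subfamily III, against 46.7% to 56.4% between subfamilies. The longest stretch shared without a mismatch by any pair of the 10 transcripts was 32 bases, in PYL7 and PYL9. It is printed as the longest run of the closest pair, and whether reads were confused there was not tested. The aligned stretch of PYL8 stands below it, with the bases that differ from PYL9 in capitals (6 differences). All are coding-strand sequences within 1 exon, at chr4:447569-447600, chr1:142439-142470 and chr5:21561460-21561491.
PYL7: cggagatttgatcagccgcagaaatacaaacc
PYL9: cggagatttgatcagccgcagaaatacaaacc
PYL8: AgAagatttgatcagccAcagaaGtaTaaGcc

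The promoters were read for the ACGTG core of the element bound by the abscisic acid bZIP factors. The search covered both strands of the 250 bases before each gene start. PYL7, PYR1 and PYL3 held it, 3 of the 10 receptors, and 22.9% of 27419 promoters of protein-coding genes did. The windows of PYL7, with the most matches, and of PYL8 and PYL1, the receptors with the largest changes to either side below, are printed 5′ to 3′ on the gene's strand, with each match in capitals. PYL7 held 3 matches, starting 70, 69 and 10 bases before the gene start. The first 2 overlap and are the forward and reverse reading of 1 CACGTG, a palindrome found in 6.48% of promoters. PYL8 and PYL1 held none, which says only that these letters are not in these windows. They lie at chr4:446728-446977 (plus strand), chr5:21560351-21560600 (plus strand) and chr5:18984924-18985173 (minus strand).
PYL7: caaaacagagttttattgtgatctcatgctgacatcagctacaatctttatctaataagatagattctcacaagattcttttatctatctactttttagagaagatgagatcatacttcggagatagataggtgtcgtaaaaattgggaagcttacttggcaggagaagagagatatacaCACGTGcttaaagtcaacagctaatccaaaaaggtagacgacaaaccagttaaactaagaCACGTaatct
PYL8: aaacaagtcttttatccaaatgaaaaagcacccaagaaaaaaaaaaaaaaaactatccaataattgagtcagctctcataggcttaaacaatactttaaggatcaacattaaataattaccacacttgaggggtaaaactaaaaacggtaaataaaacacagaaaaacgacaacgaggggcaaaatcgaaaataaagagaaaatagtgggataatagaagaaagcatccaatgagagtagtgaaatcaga
PYL1: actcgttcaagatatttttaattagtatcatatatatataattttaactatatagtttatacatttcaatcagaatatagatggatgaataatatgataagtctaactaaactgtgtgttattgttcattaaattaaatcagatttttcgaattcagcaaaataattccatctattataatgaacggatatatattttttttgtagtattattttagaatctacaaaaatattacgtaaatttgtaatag

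The libraries held 9857791 to 12460762 reads assigned to genes. Levels are given in FPKM, reads per kilobase of gene, divided by a library size that the authors scaled, and means carry the SD over 4 libraries. The labels fit the marker genes. The summed level of 7 shoot markers was 55314 to 70500 FPKM in shoot and 40.8 to 325 in root, with none of the 7 at 0 reads in root. Within root it was higher in libraries 1 and 2 (325 and 208) than in 3 and 4 (40.8 and 51.3). The summed level of 8 root markers was 287 to 423 FPKM in root and 0.931 to 3.51 in shoot, where 5 of them had 0 reads. Both tissues are mixtures of cell types, so fewer cells of a type and less RNA per cell cannot be told apart.

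PYR1, PYL4 and PYL5 were abundant in both tissues, and with PYL8 they made up 90.0% ± 0.897 of the summed receptor FPKM in shoot and 81.2% ± 1.51 in root. PYL8, PYL7 and PYL5 were lower in root. PYL1, PYL9 and PYL6 were higher in root. PYR1, PYL4 and PYL2 did not pass the test, and PYL3 was near absent and was not tested. Of the 9 receptors tested, 3 were called higher in root (37.6% of 20314 genes tested) and 3 higher in shoot (32.0% of genes), so the share that changed lies close to that of genes in general (69.6%). The test was limma on log2(FPKM + 0.5), with Benjamini-Hochberg adjustment across all genes tested. The median log2 fold change, root minus shoot, was -0.049 over the 9 receptors and 0.07 over all genes tested.

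**Figure D1:**
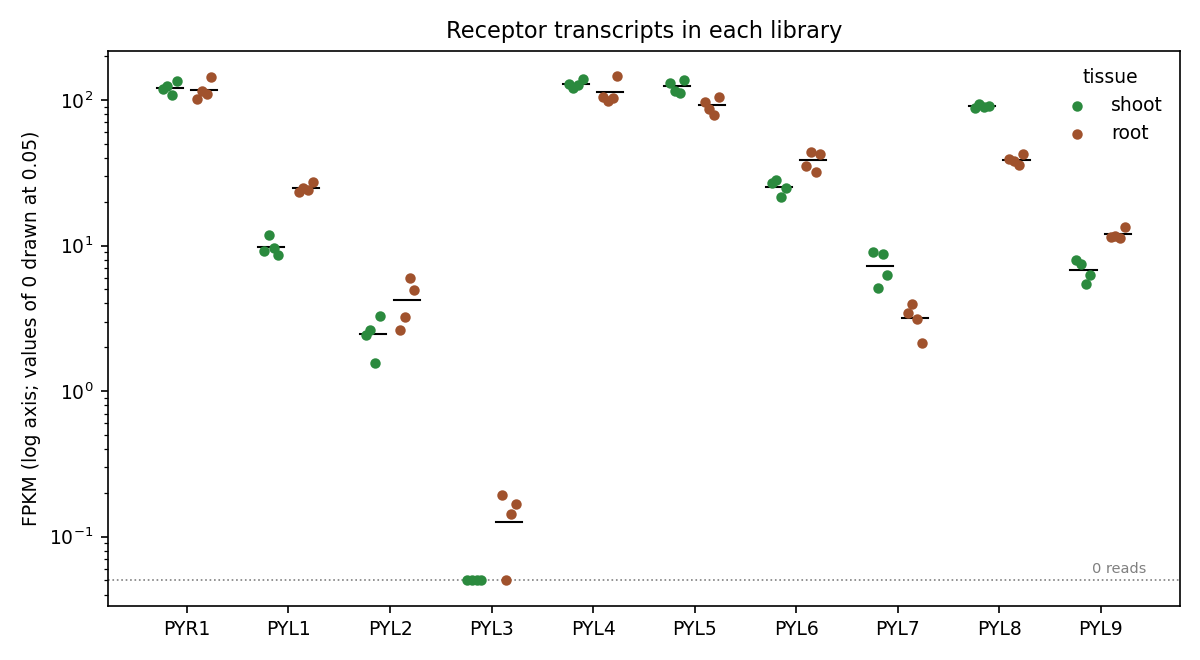
FPKM (log axis) of the 10 receptor genes, with 1 point for each of the 4 shoot and 4 root libraries and a bar at the mean. The shoot points of PYL8 all lie above its root points, those of PYL1, PYL6 and PYL9 lie below theirs, and PYL3 is at 0 reads in shoot.

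In shoot, PYL4 (129 ± 8.34 FPKM), PYL5 (124 ± 12.1) and PYR1 (121 ± 11.6) led, and their ranges overlapped. PYL8 followed at 90.5 ± 2.79 FPKM and PYL6 at 25.3 ± 2.94, each clear of its neighbours in the order. PYL1 (9.8 ± 1.37 FPKM), PYL7 (7.27 ± 1.89) and PYL9 (6.75 ± 1.13) came next, PYL1 overlapping with PYL7 and PYL7 with PYL9. PYL2 was at 2.47 ± 0.715 FPKM. In root, PYR1 (118 ± 18.2 FPKM), PYL4 (113 ± 22.4) and PYL5 (91.8 ± 11.6) led again, each overlapping with the next. PYL8 (39.0 ± 2.74 FPKM) and PYL6 (38.5 ± 5.86) then stood level. PYL1 was at 24.9 ± 1.59 FPKM and PYL9 at 11.97 ± 0.940, both clear of their neighbours, and PYL2 (4.2 ± 1.56) overlapped with PYL7 (3.16 ± 0.766). PYL8 in shoot was at a higher level than 93.8% of genes tested, and PYL1 in shoot than 54.2%, against 87.4% and 79.9% in root.

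Subfamily III held the largest rise in root and, in PYR1, an abundant gene that was not called under the deposited scaling. PYL1 (AT5G46790, chromosome 5, 18983540 to 18984923 in TAIR10, minus strand) was at 9.23, 11.7, 9.67 and 8.55 FPKM in shoot libraries 1 to 4 and at 23.4, 25.0, 24.2 and 27.1 in root libraries 1 to 4. The lowest root library was well above the highest shoot library, and limma gave a log2 fold change of 1.31 (SE 0.11, 95% interval 1.07 to 1.55, adjusted p = 1.25e-06). PYR1 (AT4G17870, chromosome 4, 9928587 to 9929875, plus strand), the receptor found in a screen with the synthetic agonist pyrabactin, was at 118, 124, 108 and 136 FPKM in shoot and 102, 115, 111 and 144 in root. The tissues overlapped throughout, and the log2 fold change was -0.049 (SE 0.12, 95% interval -0.31 to 0.22, adjusted p = 0.729). PYL2 (AT2G26040, chromosome 2, 11094258 to 11095542, minus strand) was at 2.42, 2.63, 1.55 and 3.29 FPKM in shoot and 2.64, 3.21, 6.03 and 4.94 in root. Root libraries 3 and 4 lay above all shoot libraries and root libraries 1 and 2 did not. Its log2 fold change of 0.64 (SE 0.26, adjusted p = 0.0504) missed the threshold of 0.05. It was called without root library 1 (0.81, adjusted p = 0.0187), without root library 2 (0.73, adjusted p = 0.0489), without both (1.04, adjusted p = 0.00884) and without shoot library 4 (0.76, adjusted p = 0.0322). Over all alternatives its adjusted p ran from 0.00175 to 0.148. PYL3 (AT1G73000, chromosome 1, 27462983 to 27463968, plus strand) had 0 reads in the shoot libraries and 7 reads over the root libraries, which put it at 0.195, 0, 0.143 and 0.167 FPKM in root, under the filter of 0.5 FPKM in 4 libraries. With no filter beyond a read in 1 library, limma gave it a log2 fold change of 0.31 (SE 0.12, adjusted p = 0.0423), which rests on those 7 reads.

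Subfamily II split between a fall, a rise and a gene that did not pass. PYL5 (AT5G05440, chromosome 5, 1608988 to 1610527, plus strand) was at 132, 116, 112 and 136 FPKM in shoot and 96.0, 87.1, 78.5 and 106 in root. All root libraries were below all shoot libraries, by a log2 fold change of -0.43 (SE 0.11, 95% interval -0.68 to -0.18, adjusted p = 0.00539). PYL6 (AT2G40330, chromosome 2, 16844588 to 16846194, minus strand), whose protein binds the jasmonate factor MYC2, went the other way. It was at 27.1, 28.1, 21.4 and 24.8 FPKM in shoot and 34.95, 44.2, 32.2 and 42.7 in root, with no overlap (log2 fold change 0.59, SE 0.13, 95% interval 0.31 to 0.87, adjusted p = 0.00168). PYL4 (AT2G38310, chromosome 2, 16049918 to 16051356, plus strand), a receptor gene that jasmonate induces, was at 129.5, 120.3, 126 and 140.1 FPKM in shoot and 105, 97.8, 102 and 146 in root. Root libraries 1 to 3 lay below the shoot libraries and root library 4 above them. The log2 fold change of -0.21 (SE 0.13, 95% interval -0.49 to 0.07, adjusted p = 0.166) was not called, and without root library 4 it was (-0.34, adjusted p = 0.0049).

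Subfamily I held the largest fall in root and, in PYL9, a rise. PYL8 (AT5G53160, chromosome 5, 21560601 to 21562709, plus strand) was at 87.4, 93.8, 89.3 and 91.5 FPKM in shoot and 39.3, 38.0, 36.0 and 42.5 in root. The libraries of a tissue lay close together and the tissues far apart, with a log2 fold change of -1.21 (SE 0.08, 95% interval -1.38 to -1.03, adjusted p = 1.58e-07). PYL7 (AT4G01026, chromosome 4, 446978 to 448511, plus strand) was at 9.002, 5.14, 8.7 and 6.23 FPKM in shoot and 3.46, 3.94, 3.12 and 2.13 in root. It was lower in every root library than in any shoot library (log2 fold change -1.08, SE 0.21, 95% interval -1.56 to -0.60, adjusted p = 0.00105). PYL7 overlaps the antisense genes AT4G01030 and AT4G03845, which had 137 and 4 reads in shoot and 45 and 3 in root, against 320 and 212 for PYL7. The library kit does not mark strand, so reads of PYL7 and of these partners cannot be told apart where they overlap. PYL9 (AT1G01360, chromosome 1, 141870 to 143261, plus strand) was at 7.91, 7.42, 5.42 and 6.25 FPKM in shoot and 11.4, 11.7, 11.3 and 13.4 in root. Its tissues did not overlap either (log2 fold change 0.79, SE 0.13, 95% interval 0.50 to 1.08, adjusted p = 2.73e-04).

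In all, 6 of the 9 receptors tested had no overlap in FPKM between tissues (64.8% of all genes tested), with root on top in 3 (34.7% of genes) and shoot on top in 3 (30.1%), and 3 were changed by at least 2-fold and called, namely PYL1, PYL7 and PYL8 (39.0% of genes). These 3 calls held without root libraries 1 and 2, those with more shoot marker transcripts. The receptor calls depend in part on how library size is scaled. Relative to its reads, a shoot library's scaled size was 0.770 to 0.865 and a root library's 1.18 to 1.25. With library totals alone the median log2 fold change of all genes tested moved from 0.07 to 0.58, and 6 receptors were called higher in root (59.8% of genes) and 2 higher in shoot (19.7%), against 79.4% of genes called in either direction. The fall of PYL8 (-0.66, adjusted p = 1.71e-05) and of PYL7 (-0.58, adjusted p = 0.0442) was still called, and that of PYL5 was not (0.12, adjusted p = 0.354). For PYL7 the tissues then overlapped. PYR1 (0.50, adjusted p = 0.00101) and PYL4 (0.34, adjusted p = 0.0262) were then called higher in root, at values under that median of 0.58. PYL1 (1.85), PYL9 (1.32), PYL6 (1.14) and PYL2 (1.11) lay above it.

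**Figure D2:**
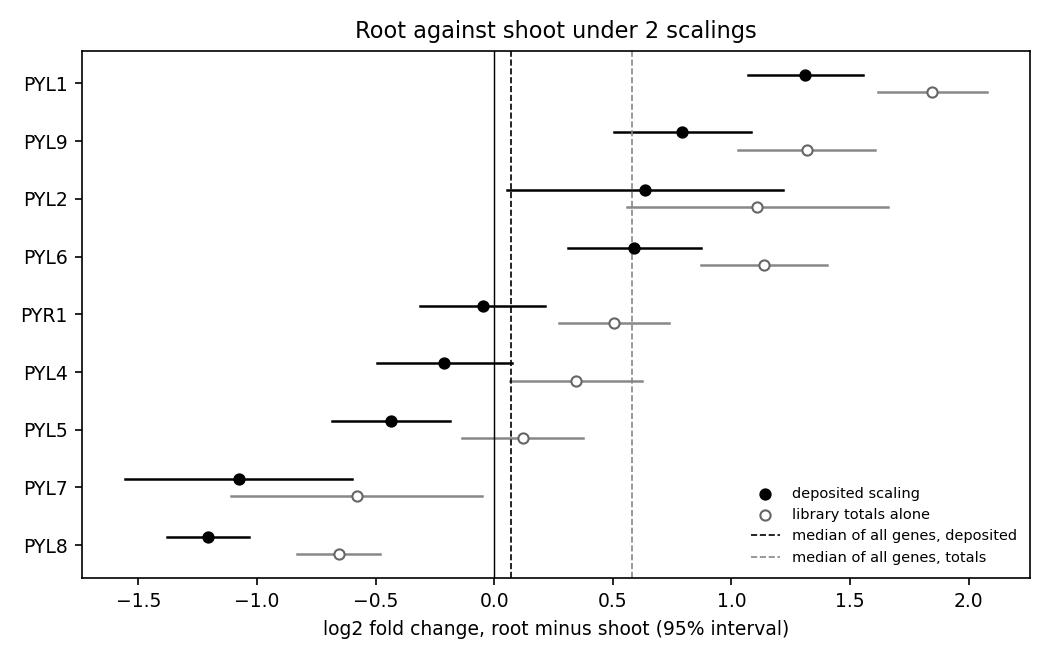
Log2 fold change, root minus shoot, of the 9 receptors tested, with the 95% interval from limma, under the deposited scaling (filled) and library totals alone (open). Dashed lines mark the median of all genes tested, which moves from 0.07 to 0.58, and the receptors keep nearly the same order, from PYL1 at the top to PYL8 at the bottom.

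Shares of the summed receptor FPKM and ratios between receptors of 1 library do not depend on that scaling. PYL8 made up 16.7%, 18.5%, 18.5% and 16.5% of the receptor FPKM in the shoot libraries, in order of their number, against 9.4%, 8.91%, 8.9% and 8.04% in the root libraries. PYL1 went from 1.91% ± 0.327 in shoot to 5.64% ± 0.383 in root, PYL6 from 4.91% ± 0.528 to 8.69% ± 1.14 and PYL9 from 1.31% ± 0.208 to 2.7% ± 0.122, in each case with no overlap between tissues. PYL4 held 25.0% ± 1.06 in shoot and 25.2% ± 1.91 in root, and those ranges overlapped. PYL5 went from 23.9% ± 1.19 in shoot to 20.7% ± 1.57 in root, also with overlap. PYL7 went from 1.42% ± 0.406 to 0.731% ± 0.228, with no overlap. By subfamily, I went from 20.3% ± 1.17 to 12.2% ± 0.876 and III from 25.9% ± 1.26 to 33.1% ± 1.76, while II held 53.8% ± 1.42 and 54.6% ± 1.7. The shares carry no test, since they sum over genes chosen as a family. Within a library they add up to a fixed whole, so a lower share of 1 gene raises the rest. PYR1, for which FPKM did not pass the test, went from 23.5% ± 1.13 in shoot to 26.5% ± 1.40 in root, with overlap.

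**Figure D3:**
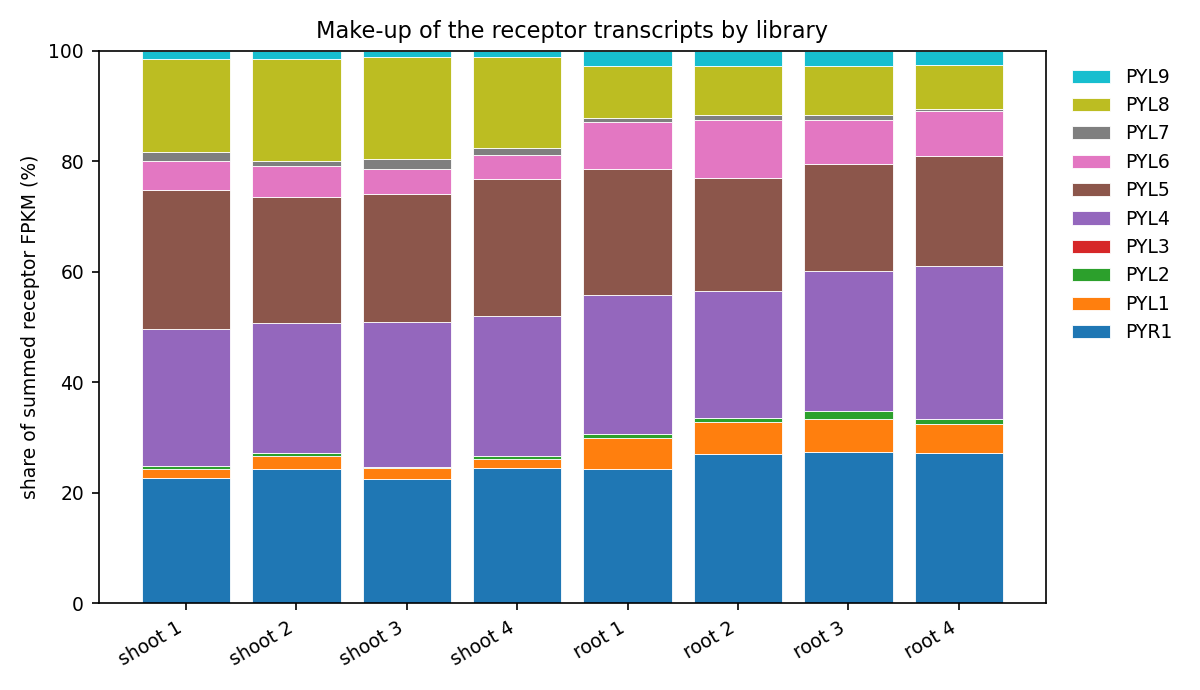
Share (%) of each receptor in the summed FPKM of the 10 receptors, as stacked bars for the 4 shoot and 4 root libraries. The PYL8 segment is 17.6% wide in shoot and 8.81% in root on average, and the PYL1, PYL6 and PYL9 segments are wider in root.

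Ratios of FPKM between pairs of receptors, chosen after their values were seen and so given with no test, showed how far relatives moved apart. PYL8 stood 7.996 to 10.7 times above PYL1 in the shoot libraries and 1.49 to 1.68 times above it in the root libraries. Its ratio to PYL9, of its own subfamily, was 11.1, 12.7, 16.5 and 14.6 in shoot and 3.44, 3.24, 3.17 and 3.18 in root. The root libraries agreed closely on this ratio, and all were far below the shoot libraries. PYR1 over PYL1 was 10.6 to 15.9 in shoot and 4.37 to 5.32 in root, and PYL5 over PYL6 was 4.12 to 5.5 in shoot and 1.97 to 2.75 in root. PYL4 over PYL5 was 0.983 to 1.13 in shoot and 1.09 to 1.38 in root, with overlap.

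**Figure D4:**
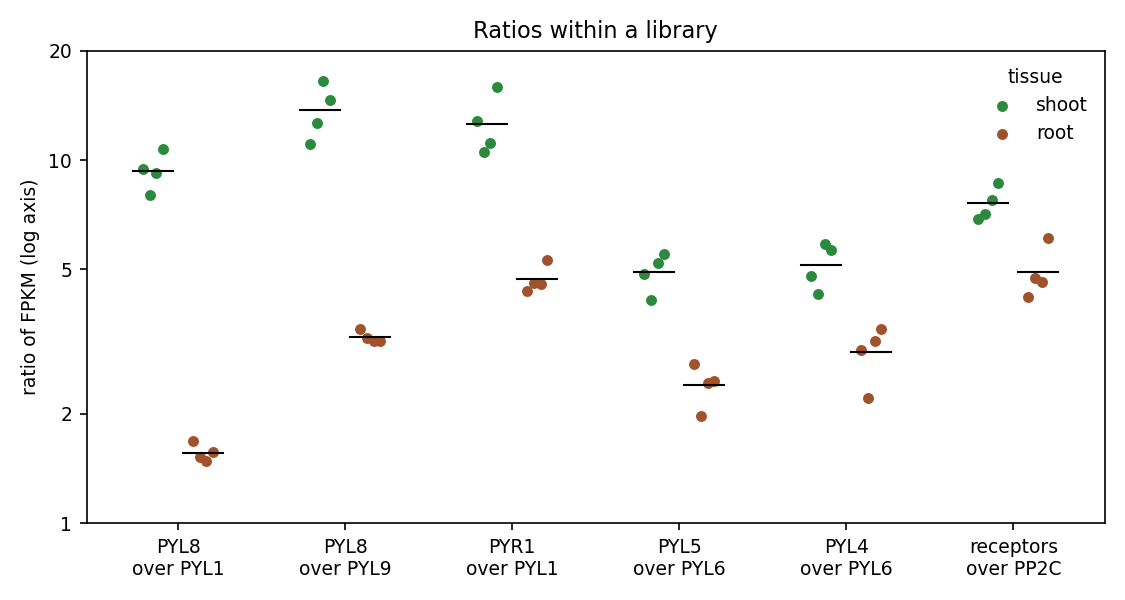
Ratio of FPKM (log axis) between pairs of receptors, and between the summed 10 receptors and the summed 9 clade A PP2C genes, with 1 point for each library and a bar at the mean. In every column drawn the 4 root points lie below the 4 shoot points, most widely for PYL8 over PYL1. The ratios that overlapped between tissues, PYL4 over PYL5 and the receptors over SnRK2 kinases, are not drawn.

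The rest of the family was nearly silent. PYL10 (AT4G27920) and PYL13 (AT4G18620) had 0 reads in all libraries. PYL11 (AT5G45860) and PYL12 (AT5G45870), which lie next to each other on chromosome 5 (18603990 to 18604677 and 18606398 to 18607111), had 0 shoot reads and 4 and 28 root reads. PYL12 was at 0.358, 1.42, 0.493 and 0.808 FPKM in root libraries 1 to 4, which is at least 6.07-fold higher than in shoot if 3 reads are taken as the floor over all shoot libraries. None of the 4 passed the filter. For a gene of 1 kb, a library's floor of 3 reads equals 0.192 to 0.375 FPKM, and lower levels rest on fewer reads. These 4 genes are shorter, at 495 to 714 bases, so their floor lies higher. Bounds and intervals on reads cover counting error only.

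The phosphatases that the receptors inhibit were called higher in root or not called. Of 9 clade A PP2C genes, 6 were tested, with 3 called higher in root (37.6% of all genes tested) and 0 in shoot (32.0%), at a median log2 fold change of 0.60. The shoot count by limma was also 0 at an unadjusted p under 0.05, and 0 by limma-voom. HAI1, which is strongly induced by abscisic acid, stood at 0.781 ± 0.843 FPKM (shoot) and 3.96 ± 0.595 (root), with a log2 fold change of 2.00 (SE 0.37, adjusted p = 5.93e-04). ABI2 was at 1.45 ± 0.514 and 4.01 ± 0.196 FPKM (1.24, adjusted p = 1.57e-04), and PP2CA, which also acts on guard cell channels, at 8.66 ± 1.44 and 17.6 ± 1.53 (0.99, adjusted p = 3.25e-05). ABI1, the most abundant, stood at 34.4 ± 2.96 and 40.1 ± 5.27 FPKM (0.21, adjusted p = 0.0987), HAB2 at 0.20 (adjusted p = 0.0571, but 0.0493 without root library 4) and HAB1 at 2.2e-04 (adjusted p = 0.999) on the log2 scale. With library totals alone all 6 were called higher in root, as were 59.8% of all genes. AHG1, HAI2 and HAI3 were under the filter. The summed FPKM of the 10 receptors was 482 to 553 in shoot and 405 to 529 in root. Set against the summed FPKM of the 9 phosphatases, it was 6.89, 7.1, 7.76 and 8.63 times as high in the shoot libraries, in order of their number, but 4.21, 4.72, 4.63 and 6.10 times in the root libraries. The root ratios were all below the shoot ratios, and root library 4, the highest in root, was also the highest root library for PYR1, PYL4 and PYL5. Against the summed FPKM of SNRK2.2, SNRK2.3 and SNRK2.6, the receptors stood at 6.77, 4.91, 4.53 and 4.76 times in shoot and 4.57, 4.73, 4.39 and 5.26 times in root, and there the tissues overlapped.

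The SnRK2 kinases moved in both directions. Of 10 genes tested, 4 were called higher in root and 4 in shoot, at a median log2 fold change of 0.07, and in all genes tested the shares were 37.6% and 32.0%. SNRK2.6, also known as OST1, the kinase of stomatal closure, fell from 8.39 ± 0.917 FPKM in shoot to 5.43 ± 0.767 in root (-0.59, SE 0.13, adjusted p = 0.00245). SNRK2.2 (76.0 ± 14.1 and 68.7 ± 3.97 FPKM, -0.13, adjusted p = 0.421) and SNRK2.3 (16.4 ± 4.46 and 19.4 ± 2.62 FPKM, 0.26, adjusted p = 0.208), its close relatives in the class most responsive to abscisic acid, were not called. The largest rises in root were those of SNRK2.7 (0.305 ± 0.17 and 16.2 ± 2.04 FPKM, 4.39, SE 0.17, adjusted p = 3.23e-09), SNRK2.9 (4.07) and SNRK2.8 (2.72), followed by SNRK2.5 (1.16). SNRK2.10 (-0.61), SNRK2.1 (-0.47) and SNRK2.4 (-0.23, adjusted p = 0.0486) were higher in shoot. The call of SNRK2.4 was lost without shoot library 2 or 3 and without any of the 4 root libraries (adjusted p = 0.0561 to 0.142). SNRK2.2 was called without shoot library 1 (-0.26, adjusted p = 0.0271) and SNRK2.3 without shoot library 4 (0.42, adjusted p = 0.0363). With library totals alone 7 were called higher in root (59.8% of all genes) and 0 in shoot (19.7%). SNRK2.6 was then at -0.069, SNRK2.10 at -0.065 and SNRK2.1 at 0.074 on the log2 scale, and none of them was called. SNRK2.4, higher in shoot under the deposited scaling, was then called higher in root (0.32, adjusted p = 0.0136). Guard cell markers were also lower in root. All 4 tested were called higher in shoot under both scalings, whereas SNRK2.6 was not called with library totals alone. The summed level of the 4 markers was 183 to 326 FPKM in shoot and 0.744 to 2.73 in root, where FAMA had 0 reads. Most of the shoot sum came from GC1, at 210 ± 61.6 FPKM. The part of guard cells in the fall of SNRK2.6 was not tested.

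Of 9 transcription factor genes of the pathway, 7 were tested, with 2 called higher in root (37.6% of all genes) and 1 in shoot (32.0%), at a median log2 fold change of 0.13. ABF1 was at 7.997 ± 2.26 FPKM in shoot and 27.5 ± 5.49 in root (1.73, SE 0.20, adjusted p = 1.81e-05), and EEL, a bZIP gene first known from seeds, at 3.09 ± 0.58 and 6.15 ± 0.814 (0.89, adjusted p = 4.75e-04). ABF4 was at 22.7 ± 1.49 and 15.4 ± 1.5 FPKM (-0.55, adjusted p = 4.16e-04), and with library totals alone at -0.0084 (adjusted p = 0.942). ABF3 (0.13), ABF2 (-0.16), AREB3 (-0.0013) and ABI5 (0.40) were not called. ABI3 and ABI4, regulators of seed maturation and germination, were under the filter with 0 shoot reads and 16 and 3 root reads.

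Among 14 genes for proteins that bind the receptors, 11 were tested, with 6 called higher in root, against 37.6% of all genes, and 0 in shoot, against 32.0% (median log2 fold change 0.83). The shoot count was 1 by limma at an unadjusted p under 0.05, and 1 by limma-voom. Without shoot library 1, 3 or 4, or without root library 3, 1 gene was called higher in shoot. They comprise the CAR proteins, which carry a C2 domain and recruit receptors to membranes, DDA1, which targets receptors for degradation, and MYB factors that bind PYL8. CAR3 had 0 reads in shoot. Its root level of 12.4 ± 4.96 FPKM was at least 119.6-fold higher, by the same floor of 3 reads in all shoot libraries. MYB73, the most abundant of the list, was at 55.3 ± 10.6 and 53.3 ± 3.23 FPKM (-0.034, adjusted p = 0.823).

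Of 14 genes known to be induced by abscisic acid or drought, 13 were tested, with 6 called higher in root and 4 in shoot (median log2 fold change -0.18). Of all genes tested, 69.6% were called in either direction. RD22 was at 277 ± 80.7 FPKM in shoot and 5.84 ± 3.06 in root (-5.52, SE 0.30, adjusted p = 3.77e-08). AFP3, which encodes a protein that binds ABI5, was at 4.58 ± 1.26 and 19.5 ± 2.43 FPKM (2.00, SE 0.17, adjusted p = 1.33e-06). COR47, a dehydrin gene and the most abundant of the list, was at 434 ± 91.9 and 568 ± 44.2 FPKM (0.41, adjusted p = 0.0321). Its call was lost without shoot library 1, 2 or 3 and without root library 1, 2 or 3 (adjusted p = 0.0533 to 0.0944).

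All 5 genes of proteins phosphorylated by SnRK2 kinases changed, 2 higher in root and 3 in shoot (median log2 fold change -1.18), where 69.6% of all genes were called. KAT1, an inward potassium channel of guard cells, had 7.03 ± 1.71 FPKM in shoot and 2 root reads, 566 times as high in shoot, with counting error allowing 156 to 4685 (95% interval). RBOHF, an NADPH oxidase gene, was at 2.92 ± 1.08 and 14.4 ± 3.48 FPKM (2.15, adjusted p = 2.17e-05), and SLAH3, an anion channel gene, at 9.75 ± 3.5 and 31.4 ± 4.19 (1.69, adjusted p = 3.02e-05). Of 4 abscisic acid transporter genes, 2 were higher in root (1 without root library 3) and 2 in shoot, beside 37.6% and 32.0% of all genes. NPF4.6, an importer, was at 25.1 ± 6.6 and 38.1 ± 3.32 FPKM (0.63, adjusted p = 0.0065, but 0.0639 without root libraries 1 and 2) and DTX50, an exporter, at 9.34 ± 2.26 and 4.74 ± 1.03 (-0.90, adjusted p = 0.00181, but -0.39 and adjusted p = 0.121 with library totals alone).

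**Figure D5:**
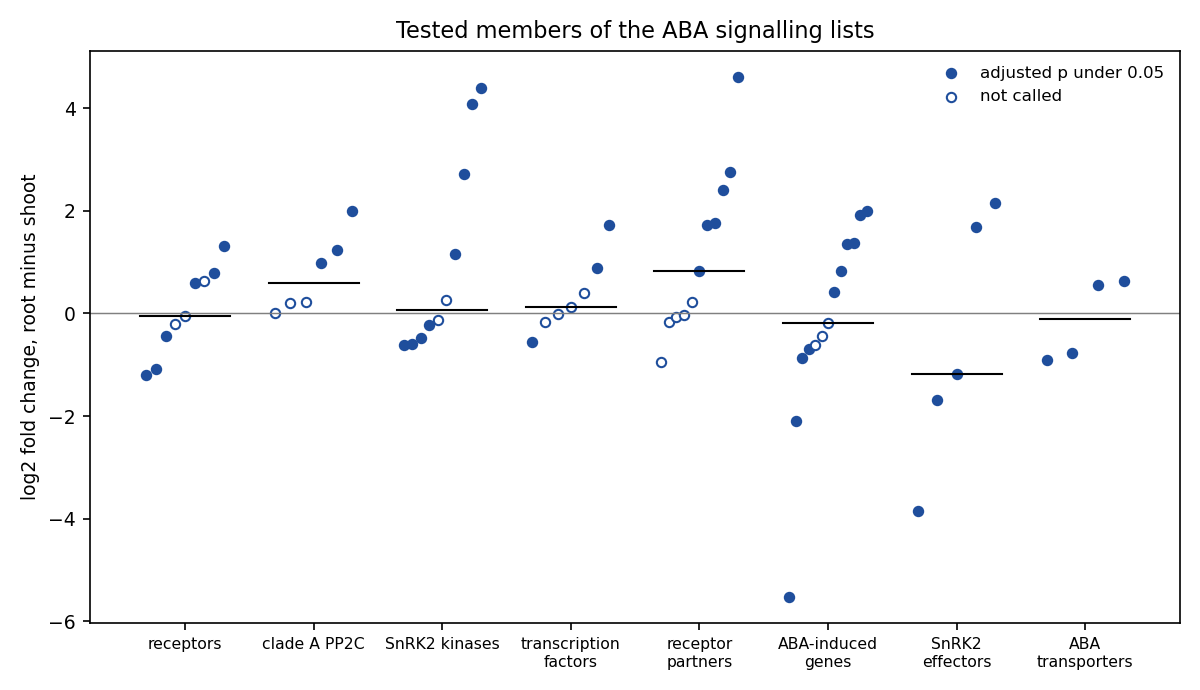
Log2 fold change, root minus shoot, of each tested member of 8 lists of the abscisic acid pathway, with filled points for adjusted p under 0.05 by limma, open points for genes not called and a bar at the list's median. The receptors lie between -1.21 and 1.31, and the SnRK2 kinases reach 4.39.

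The genes whose log2(FPKM + 0.5) followed PYL1 most closely over the 8 libraries were AT4G18550, IDH6 and AT3G45310, with Pearson's r of 0.999 for each. For PYL8 they were CIPK3, ATHX and AT1G06690, also with r of 0.999 for each. This measure separates genes little here, since the libraries fall into 2 tissues and share their scaling, and 3117 and 3328 genes had an r of at least 0.95 with PYL1 and PYL8. CIPK3 went from 62.4 ± 5.06 FPKM in shoot to 15.9 ± 1.61 in root, and IDH6 from 11.3 ± 1.63 to 36.4 ± 4.1.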

How the data were processed

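RNA-seq of 4 shoot and 4 root samples of Arabidopsis was used. Per the labels' protocols, mRNA was selected with poly-T beads and libraries do not mark strand. The genome build TAIR10, HISAT2 2.0.5 and featureCounts 1.5.0-p3 are named per the submitters' processing notes. How shared reads were handled, and which annotation release was used, is not given in the sources used here. Values in the deposited table, although its name speaks of counts, are FPKM scaled by the authors in a way not given. Multiplied by gene length they fall on whole steps in each library (largest deviation 1.37e-09 reads), so reads were recovered, which alternatives used. No deposited counts were tested.

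Root was tested against shoot by limma 3.58.1 in R 4.3.3 (values as log2(FPKM + 0.5), empirical Bayes with a trend) over 20314 genes with at least 0.5 FPKM in at least 4 of 8 libraries, and adjusted p under 0.05 was a call. This scale understates the change of low genes. With a replicate left out, the same genes were tested. The script was tested on simulated data. The chi-square per gene between replicates was 6.94 to 21.0, above sampling noise. Overlap was judged in FPKM, and for PYL7 also with library totals alone.

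The members and lists were chosen with earlier results of these data known. Named were all receptors, phosphatases, SnRK2 kinases and transcription factors, and from each other list its most abundant tested gene and its largest called change in each direction, plus, for the receptors with the largest changes, the 3 genes of highest Pearson's r. HAI1 is listed as SAG113 in the table, AREB3 as DPBF3, SNRK2.6 as SRK2E, RHD6 as BHLH83 and GC1 as GASA9.

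Coding sequences and promoters came from the TAIR10.1 genome and RefSeq annotation. Of 32548 matched genes, 32532 had the same start and end as in the deposited table. Coding sequences were aligned globally with Biopython 1.88. Identity was computed between coding sequences, not between proteins as planned.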

Additional observations from a re-analysis of the deposited data

Results flagged for a closer look

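Among 66 groups of 4 libraries checked for 1 library far from the other 3, 2 were found, and about 1 in 20 such groups is found by chance. PYL4 stood at 146 FPKM in root library 4, against 97.8 to 105 in the other root libraries. PP2CA stood at 10.8 FPKM in shoot library 1, against 7.78 to 8.12 in the other shoot libraries.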

How the results depend on the processing

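The calls of PYL1, PYL6, PYL7, PYL8 and PYL9 held under every alternative run, and that of PYL5 under all but library totals alone. That scaling changed the call or direction of more single genes than any other alternative (23 of 42 kept both). It gave 12142 genes higher in root and 3997 in shoot, against 7630 and 6500. Calls in root numbered 6 for receptors, 6 for phosphatases, 7 for SnRK2 kinases and 5 for transcription factors. Calls in shoot were 2 for induced genes, and 0 for SnRK2 kinases, transcription factors and transporters. Log2 fold changes were 0.50 for PYR1, 0.34 for PYL4, 0.12 for PYL5, 1.11 for PYL2 (adjusted p = 0.00175), 0.074 for SNRK2.1, 0.43 for SNRK2.2, 0.32 for SNRK2.4, 0.36 for ABF2, 0.53 for AREB3 and 0.52 for MYB73. The cause of these changes, and of those under the other alternatives, was not tested. HAB1, which lies near 0, was at -0.014 with median of ratios and at -3.4e-04 with a pseudocount of 1. PYL2 was called with a pseudocount of 1 (0.56, adjusted p = 0.0475) and with at least 1 FPKM in 4 libraries (0.64, adjusted p = 0.0492). With limma-voom on recovered reads, 1 receptor partner was called higher in shoot. With no filter beyond a read in 1 library, PYL3, PYL12 and 5 phosphatases were called higher in root, PYL3 on 7 reads. Without root replicates 1 and 2, PYR1 was at 0.061, PYL2 at 1.04 (adjusted p = 0.00884), HAB1 at -0.20, ABF3 at -0.11 and MYB73 at 0.0013, and 1 transporter was called higher in root. With each replicate left out in turn, PYR1 ran from -0.15 to 0.016, PYL2 from 0.46 to 0.81, PYL4 from -0.34 to -0.15, HAB1 from -0.15 to 0.11, AREB3 from -0.054 to 0.061 and MYB73 from -0.15 to 0.076. Calls then ran from 1 to 2 for transporters in root and from 0 to 1 for receptor partners in shoot. For receptors they ran from 3 to 4 in each direction, and for phosphatases from 3 to 4 in root. For SnRK2 kinases they ran from 4 to 5 in root and from 3 to 5 in shoot. For induced genes they ran from 5 to 6 in root and from 3 to 6 in shoot. Whether replicate numbers pair the samples could not be settled, since same-numbered samples had low correlations, of 0.0152 to 0.0710. Samples numbered 1, 3 and 4 correlated best with their own number in the other tissue. Shoot sample 2 did so with root sample 4 (0.0238), and root sample 2 with shoot sample 1 (0.0263). A replicate block changed the call of none of the 42 single genes checked (PYL2 0.64, adjusted p = 0.0649) and gave 7593 genes higher in root and 6511 in shoot. Depth limits PYL3 and PYL10 to PYL13, with 0 shoot reads.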
